A study of Mus musculus with 4 samples.

Results

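Proteins that carry cargo between the cytoplasm and the nucleus, and the GTPase Ran that directs them, were followed in 4T1 cells of high and low mitochondrial membrane potential (MMP). The group held 10 genes of the 20197 in the expression table: the importin alpha genes Kpna1, Kpna2, Kpna3, Kpna4 and Kpna6, the importin beta family genes Kpnb1 and Tnpo1, the exportins Cse1l and Xpo1, and Ran itself. Kpna2 was picked from its difference between high and low MMP cells in these same libraries, and the other 9 genes were listed as its family. The difference of Kpna2 is therefore given as a description, without a test. Kpna7, another importin alpha gene, was not analysed here.

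The study sorted cells by MMP because reports on the part of mitochondrial activity in metastasis disagreed. 4T1 is a mouse mammary tumor line, labelled WT in genotype, and all samples were cultured, stained with 20 nM MitoSpy Red, a dye that accumulates in mitochondria according to their membrane potential, and sorted by flow cytometry. The brightest 5% made up the high MMP group and the dimmest 5% the low MMP group, with 2 samples in each group, RNA from 100000 cells per sample and 200 ng of RNA in each stranded mRNA library. No unsorted cells were analysed here, so each value compares the ends of 1 stained population of 1 cell line. The study counts the samples of a group as independent experiments or tumors, and the labels do not say which culture each came from.

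Importins bind cargo proteins that carry a nuclear localization signal and take them through the nuclear pore, and exportins do the reverse. In the classical route, importin alpha reads the signal on the cargo and importin beta (Kpnb1) ties the complex to the pore, after which Ran loaded with GTP releases the cargo in the nucleus. When the nuclear envelope breaks down in mitosis, the same importins hold spindle assembly factors inactive until Ran near the chromosomes frees them, so that importins and Ran have a second role in building the spindle.

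Libraries held between 22591970 and 26395015 reads assigned to genes, recovered from the scaled values, and between 18643 and 18854 genes above 0. Values are normalized reads, that is, the reads of a gene after the authors scaled each library to a total of 20000000. Among the 10 genes the reads behind a value ran from 1443 to 31009. The high MMP libraries were further from each other than the low MMP libraries (chi-square per gene of 43.2 against 9.08), and high MMP 1 stood apart in its share of reads from mitochondrial genes, 1.35% against 2.15% to 2.37% in the other 3 libraries. All 5 epithelial markers (Epcam, Krt7, Krt8, Krt18, Cdh1) were present, with summed levels of 63806 and 46063 in high MMP and 53505 and 61316 in low MMP cells. Cdh1 was the only 1 of the 5 whose groups did not overlap, at 3903 and 4726 in high and 5421 and 5426 in low MMP cells. Of all genes, 24.5% likewise had both high MMP libraries below both low MMP libraries. Among genes averaging at least 1000 normalized reads the share was 18.9%, so 1 of 5 does not set these markers apart. The leukocyte marker Ptprc was at 1.8 or less in every library, and Cd3e, Adgre1 and Itgam were not analysed here. Fibroblast markers summed to 334.2 and 374.1 in high against 548.3 and 603.8 in low MMP cells, most of it Pdgfra (Lum was not analysed here), and endothelial markers (Tek was not analysed here) summed to between 1.7 and 6.2. The part of these markers in the results was not tested.

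Kpna2 encodes importin alpha 1, an adaptor that recognises the classical nuclear localization signal and is known as abundant in proliferating cells. The gene (ENSMUSG00000018362) lies on the minus strand of mouse chromosome 11, 106988629 to 106999541 in GRCm38. Its level was 7631 normalized reads in high MMP 1, 7171 in high MMP 2, 2995 in low MMP 1 and 3473 in low MMP 2. Both high MMP libraries stood far above both low MMP libraries, with no overlap. The means were 7401 ± 325 in high MMP and 3234 ± 338 in low MMP cells (SD, n = 2), a ratio of 2.29 and a difference of 1.20 on the log2(value + 1) scale. Between libraries of the same number the difference was 1.35 and 1.05, whereas the 2 high MMP libraries differed by 0.09 and the 2 low MMP libraries by 0.21. Without high MMP 1, the library that stood apart, the difference was 1.15. In these bulk samples more cells in which Kpna2 is abundant and more Kpna2 RNA per cell cannot be told apart.

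Kpna2 ranked 3 by its difference among the 4750 genes that averaged at least 1000 normalized reads over the libraries, after Ube2c (1.30), an E2 enzyme of the anaphase-promoting complex, and Nusap1 (1.22), a spindle protein. Prc1 (1.19), which bundles microtubules of the central spindle, and Cdc25b (1.02), a phosphatase that activates CDK1, were the only other genes of that abundance with a difference of 1 or more. Cdc25b was named after its value was seen. The next member after Kpna2 in that order was Cse1l, at rank 853.

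**Figure D1:**
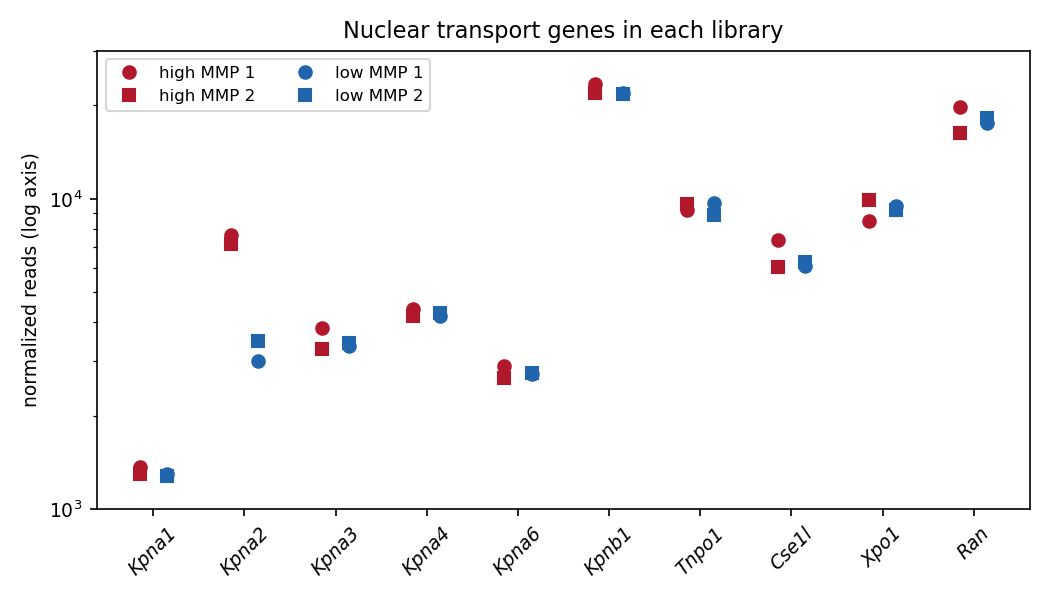
Normalized reads (log axis) of the 10 transport genes in each library, with high MMP in red and low MMP in blue, circles for replicate 1 and squares for replicate 2. Kpna2 separated into 7171 and 7631 in high against 2995 and 3473 in low MMP cells, while the libraries of the other genes lay close together.

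The promoter of Kpna2 is shown because its letters include those of the CHR, the cell cycle genes homology region, an element found at promoters of genes used late in the cell cycle, and of CCAAT, the letters bound by NF-Y. RefSeq start-site windows of 250 bases before to 50 bases after the start (GRCm38.p6) were available for 6 of the 10 genes, namely Kpna2, Kpna4, Kpnb1, Tnpo1, Xpo1 and Ran. The stretch upstream of the annotated gene is printed 5′ to 3′ on the gene's strand for Kpna2 (chr11:106999542-106999775, minus strand) and, as the importin alpha paralog with a window, for Kpna4 (chr3:69127114-69127342, minus strand). Capitals mark CCAAT or TTTGAA on either strand, TTCAAA and ATTGG being their letters on the opposite strand.
Kpna2: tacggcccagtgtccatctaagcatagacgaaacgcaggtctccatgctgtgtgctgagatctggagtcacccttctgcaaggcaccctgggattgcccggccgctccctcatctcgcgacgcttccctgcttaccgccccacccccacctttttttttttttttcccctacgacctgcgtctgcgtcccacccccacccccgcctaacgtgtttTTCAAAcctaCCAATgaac
Kpna4: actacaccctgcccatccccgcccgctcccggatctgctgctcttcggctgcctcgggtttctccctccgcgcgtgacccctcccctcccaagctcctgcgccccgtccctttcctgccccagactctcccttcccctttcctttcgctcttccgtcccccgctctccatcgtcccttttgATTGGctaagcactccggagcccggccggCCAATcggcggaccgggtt

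In the Kpna2 window TTCAAA began 35 bases before the RefSeq start and CCAAT 25 bases before it, with 4 bases between them, and another CCAAT began 6 bases after the start. The Kpna4 window held CCAAT letters 40 and 69 bases before its start and no CHR letters. TTTGAA or TTCGAA, searched on both strands as the CHR, was in none of the windows of Kpna4, Kpnb1, Tnpo1, Xpo1 and Ran, and at least 1 window of each of these genes but Ran held CCAAT. Of all 32851 windows of this length, 19.2% held the CHR letters, 37.4% held CCAAT and 7.52% held both. Among 47 windows for the G2/M list of the Seurat package, 74.5% held the CHR letters and 61.7% both motifs, against 16.1% and 12.9% of 31 windows for its S phase list. A match of letters is a description and not a binding site.

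The 4 paralogs encode the other importin alpha proteins and share the adaptor role of Kpna2 with their own cargo preferences. Kpna1 (chromosome 16, 35978750 to 36037131, plus strand) stood at 1365 and 1296 normalized reads in high and 1295 and 1277 in low MMP cells. Kpna3 (chromosome 14, 61365211 to 61439874, minus strand) had 3840 and 3284 in high and 3354 and 3440 in low MMP cells. For Kpna4 (chromosome 3, 69067149 to 69127113, minus strand) the values were 4428 and 4185 against 4205 and 4271. The high MMP libraries of Kpna3 and Kpna4 lay on either side of the low MMP libraries, and those of Kpna1 lay just above them. Kpna6 (chromosome 4, 129643980 to 129672767, minus strand) overlapped likewise, at 2889 and 2652 against 2716 and 2744.

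Read from the limma fit across all genes, the difference was 0.05 for Kpna1 (SE 0.08, 95% interval -0.16 to 0.25, adjusted p = 0.922). It was 0.06 for Kpna3 (SE 0.11, interval -0.23 to 0.36, adjusted p = 0.929). Kpna4 gave 0.02 (SE 0.08, interval -0.20 to 0.25, adjusted p = 0.981). Kpna6 also gave 0.02 (SE 0.08, interval -0.21 to 0.25, adjusted p = 0.992). Kpna2 exceeded the median of its paralogs by 1.16, as a description.

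Because the genes differ in length, levels were set against each other only as normalized reads per kilobase of exon. Kpna2 made up 57.3% and 58.4% of the summed per-kilobase level of the 5 importin alpha genes in high MMP and 36.6% and 39.7% in low MMP cells. It was the most abundant importin alpha gene per kilobase in all 4 libraries, with an uncertainty from shared sequence, given below, that its paralogs lack. Kpna3 came next by all-exon length with 19.3% and 17.9% in high against 27.4% and 26.3% in low MMP cells. The summed level was 4635 and 4275 in high and 2849 and 3045 in low MMP cells, a ratio of means of 1.51. Without Kpna2 the ratio of the remaining 4 genes was 1.03. With the length of the principal transcript in place of all exons, the share of Kpna2 was 56.1% and 56.8% in high and 35.2% and 38.3% in low MMP cells, and Kpna4 (means of 1156 and 1137 per kilobase in high and low MMP cells) came before Kpna3 (875 and 835).

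**Figure D2:**
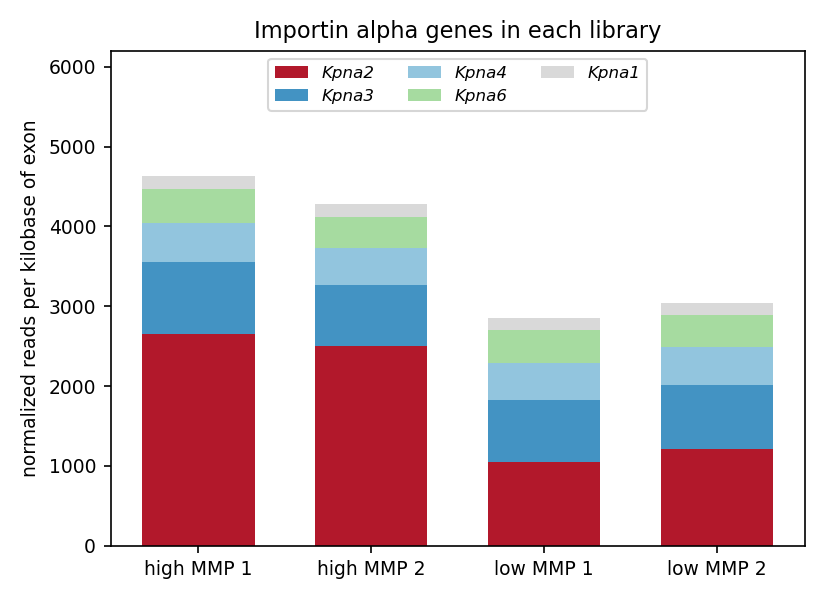
Stacked bars of normalized reads per kilobase of exon for the 5 importin alpha genes in each library. The summed level was 4635 and 4275 in high and 2849 and 3045 in low MMP cells, and the Kpna2 segment accounted for nearly all of the gap.

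The importin beta family carries the complexes through the pore. Kpnb1, the importin beta that partners importin alpha (chromosome 11, 97159714 to 97187881, minus strand), had 23496 and 21845 normalized reads in high and 21935 and 21836 in low MMP cells. High MMP 1 was the highest of the 4, and the other 3 libraries were nearly level. The difference was 0.05 (SE 0.12, interval -0.28 to 0.38, adjusted p = 0.964 by limma). Tnpo1, transportin 1, which imports RNA-binding proteins without importin alpha (chromosome 13, 98839019 to 98926384, minus strand), had 9234 and 9609 in high and 9718 and 8876 in low MMP cells. The low MMP libraries enclosed both high MMP libraries of Tnpo1, and the difference was 0.02 (SE 0.10, interval -0.26 to 0.30, adjusted p = 0.994 by limma).

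Exportins were represented by Cse1l and Xpo1. Cse1l, which returns importin alpha to the cytoplasm (chromosome 2, 166906040 to 166946389, plus strand), was at 7344 and 6026 in high and 6094 and 6267 in low MMP cells. The high MMP libraries of Cse1l were the highest and the lowest of the 4, and its difference of 0.11 had an interval of -0.24 to 0.46 (SE 0.13, adjusted p = 0.873 by limma). Xpo1, the main exporter of proteins with a leucine-rich export signal (chromosome 11, 23256041 to 23298249, plus strand), was at 8462 and 9897 in high and 9453 and 9225 in low MMP cells. Here too the high MMP libraries enclosed the low MMP libraries, with high MMP 1 the lowest, and the difference was -0.03 (SE 0.12, interval -0.35 to 0.29, adjusted p = 0.990 by limma).

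Ran, the GTPase that loads and unloads importins and exportins (chromosome 5, 129020069 to 129024323, plus strand), had 19793 and 16331 normalized reads in high and 17511 and 18192 in low MMP cells. Its high MMP libraries were the highest and the lowest of the 4, and the difference was 0.01 (SE 0.14, interval -0.38 to 0.40, adjusted p = 0.994 by limma).

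Of the 9 genes other than Kpna2, 0 passed an adjusted p of 0.05 and 0 an unadjusted p of 0.05 by limma. Over all 20197 genes that fit called 0 (0%) at an adjusted p of 0.05 and had 2011 (9.96%) at an unadjusted p of 0.05, edgeR called 0 with 1423 at an unadjusted p of 0.05, and DESeq2 called 118. Neither edgeR nor DESeq2 called any of the 9. Because the limma fit on the whole table called no gene at all, these counts do not show that the levels were equal, and the intervals above give the range of differences left by these samples. Kpna1 was the only one of the 9 whose high MMP libraries both lay above the low MMP libraries, and none had both below. For comparison, of the 4750 genes averaging at least 1000 normalized reads 15.6% had both high MMP libraries above and 18.9% both below. In all 9 genes the 2 high MMP libraries were further apart than the group means on the log2 scale. In 7 of them the difference had opposite signs between libraries numbered 1 and libraries numbered 2. High MMP 1 was the highest library for 7 of the 9 genes. Without it the differences of Kpna3, Kpna4, Kpna6, Kpnb1, Cse1l and Ran were below 0 and that of Xpo1 was above 0. How often other genes showed these patterns was not counted, so the counts do not set the 9 genes apart. Across the table the high MMP libraries also differed more than the low MMP libraries (chi-square per gene of 43.2 against 9.08). Same-numbered libraries deviated in opposite directions there too (r = -0.421 over 12902 genes averaging 10 or more normalized reads). The median difference of the 9 genes was 0.02, against -0.04 for all genes and -0.0094 for those averaging at least 1000 normalized reads.

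**Figure D3:**
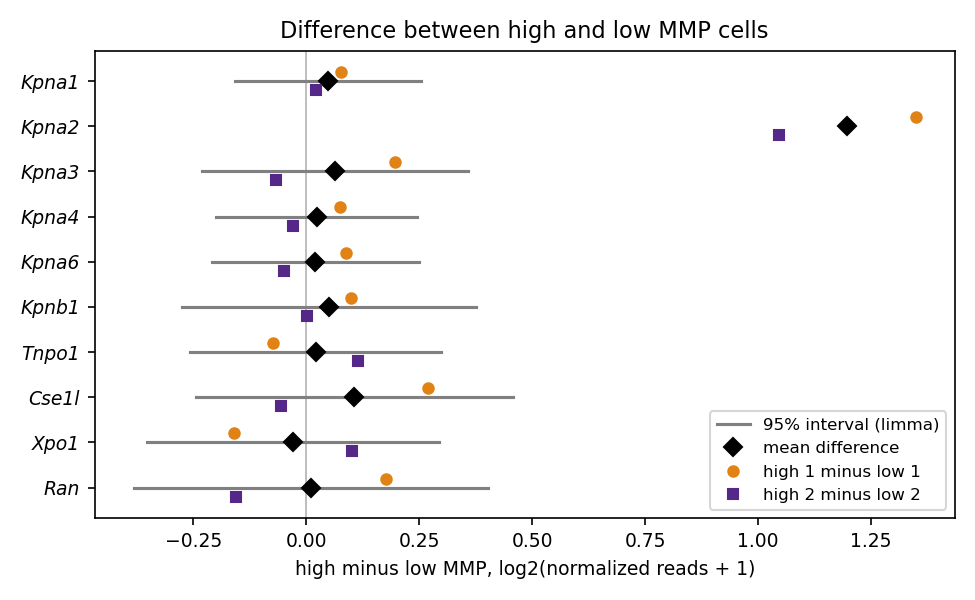
Difference between high and low MMP cells in log2(normalized reads + 1) for the 10 genes (diamonds), with 95% intervals from limma for all but Kpna2 and the differences between libraries of the same number (circles for 1, squares for 2). Kpna2 lay at 1.20, and the other means lay between -0.03 and 0.11.

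Kpna2 changed its place in the order of levels per kilobase between the groups. In high MMP cells it ran from Ran (6826 ± 925, SD, n = 2) through Kpnb1 (3440 ± 177) and Kpna2 (2576 ± 113) to Xpo1 (1278 ± 141) and Cse1l (1268 ± 177). Xpo1 and Cse1l overlapped between libraries there, as did the next neighbours Tnpo1 (840 ± 23.6) and Kpna3 (829 ± 91.5). Kpna4 (482 ± 19.2), Kpna6 (412 ± 24.9) and Kpna1 (157 ± 5.7) followed without overlap. In low MMP cells Kpna2 had 1126 ± 118 and ranked 5, behind Xpo1 (1300 ± 22.5) and Cse1l (1172 ± 23.2), and overlapped Cse1l. All other genes kept their relative order. Set against its own exporter, the ratio of Kpna2 to Cse1l per kilobase was 1.91 and 2.18 in high and 0.902 and 1.02 in low MMP cells. Against its partner Kpnb1 the ratio was 0.745 and 0.753 in high and 0.313 and 0.365 in low MMP cells. Order between genes depends on the length used, since the all-exon length of Kpna4, for example, is 8940 bases and that of its principal transcript 3726.

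Genes with profiles most like that of Kpna2 were sought among 9998 other genes with a mean of at least 100, by Euclidean distance between log2 values centred on each gene's mean over the 4 libraries. The 5 nearest were Nusap1 (distance 0.0817), Ube2c (0.111), Itgb6 (0.112), an integrin subunit, Depdc1b (0.136) and Prc1 (0.198). Nusap1 was at 2992 and 2912 normalized reads in high and 1220 and 1320 in low MMP cells. Ube2c was at 4946 and 4777 in high and 1879 and 2088 in low MMP cells. Itgb6 was much lower, at 179 and 166 against 66.3 and 85.9. All 5 were high in both high MMP libraries and low in both low MMP libraries, which follows from their choice by likeness to Kpna2. Of them, 2 (Nusap1 and Ube2c) are in the G2/M list, which holds 54 of all 20197 genes. How many of the 9998 genes compared are in that list was not counted. Both high MMP libraries were above both low MMP libraries in 83.3% of the list, so a choice by likeness to Kpna2 favours its genes. The nearest of the other transport genes was Cse1l at a distance of 1.11 (rank 1634), and Xpo1 was the farthest at 1.26 (rank 5226).

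**Figure D4:**
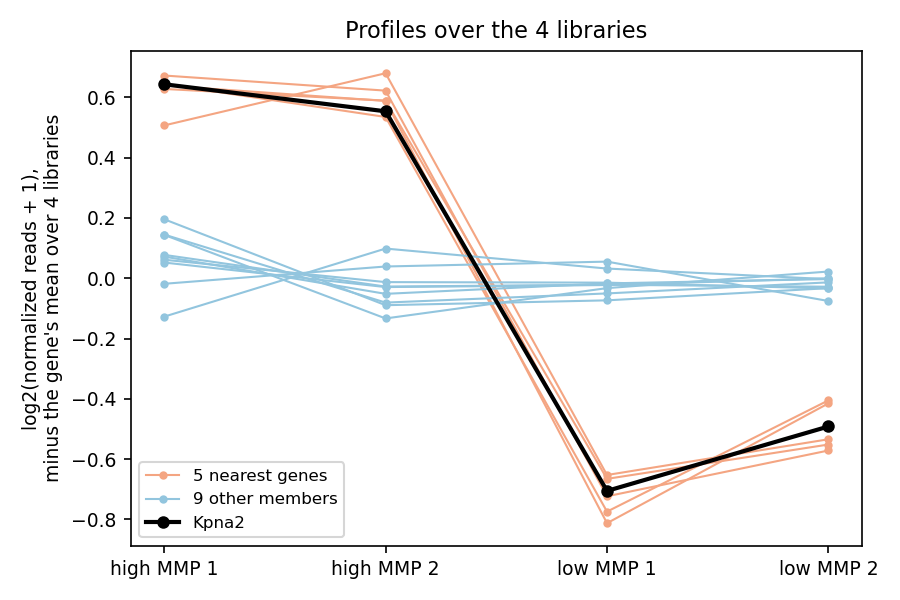
Log2(normalized reads + 1) minus each gene's mean over the 4 libraries, for Kpna2 (black), its 5 nearest genes (orange) and the 9 other transport genes (blue). Kpna2 was above its mean in both high MMP libraries and below it in both low MMP libraries. Its neighbours, picked by likeness to it, followed the same course, while the 9 other transport genes stayed near 0.

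Wider lists of transport genes gave a similar view. Of 12 genes of import, the importin beta family together with the adaptor Snupn, 3 had both high MMP libraries above and 1 had both below the low MMP libraries, and the median difference was 0.04. The 8 exportins counted 2 above and 0 below, with a median of 0.04. In the Ran cycle, 9 of 10 genes were in the table, with 2 above, 1 below and a median of 0.03. For the 27 nucleoporins in the table of 28 listed, the counts were 5 above and 3 below and the median was -0.02, while the 15 mRNA export genes counted 2 above and 2 below with a median of -0.01. Across these lists without Kpna2, 75 of 78 genes were in the table, and 0 passed an adjusted p or an unadjusted p of 0.05 by limma. Of all genes, 0% passed at an adjusted p and 9.96% at an unadjusted p by the same fit. Both high MMP libraries were above both low MMP libraries in 15 of the 75 (20%) and below in 7 (9.33%), against 13.5% above and 24.5% below among all genes. Most of the 75 averaged at least 1000 normalized reads, and among genes of that abundance 15.6% were above and 18.9% below. Differences ran from -0.49 to 0.27, with a median of 0.01.

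The genes of smallest p in these lists show how small the differences were beside that of Kpna2. Rangap1, the GTPase-activating protein that returns Ran to its GDP form, was at 5013 and 4341 normalized reads in high and 3775 and 4063 in low MMP cells, which differed by 0.25 (SE 0.11, adjusted p = 0.583 by limma). Ipo11, an importin of the beta family, was at 1580 and 1531 against 1374 and 1363, a difference of 0.18 (SE 0.07, adjusted p = 0.536 by limma). Snupn, the snurportin that brings snRNPs into the nucleus, was at 211 and 194 against 179 and 165. These 3 genes did not overlap between groups and were higher in high MMP cells. Their choice by smallest p in these same libraries favours such a lack of overlap. Ipo4, an importin for histones and ribosomal proteins, was lower in both high MMP libraries, at 1036 and 1162 against 1273 and 1233, a difference of -0.19 (adjusted p = 0.628 by limma). Among nucleoporins and mRNA export genes, the smallest p-values belonged to Nup35 (0.27, adjusted p = 0.541), Thoc6 (-0.19, adjusted p = 0.577) and Nup160 (0.16, adjusted p = 0.615), all by limma. The lowest value of all, -0.49, was that of the nucleoporin Nup210, at 671 and 1159 in high and 1327 and 1154 in low MMP cells. Its groups overlapped, and high MMP 1 was the library set apart. Nup210 was named after its value was seen.

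Importins also hold spindle assembly factors until Ran releases them, and 11 such factors were read from the same fit. Nusap1, a microtubule bundling protein with values given above, differed by 1.22 (SE 0.08, adjusted p = 0.472 by limma). Kifc1, a minus-end directed kinesin, was at 1422 and 1984 in high and 1072 and 1084 in low MMP cells, which differed by 0.64 (SE 0.18, adjusted p = 0.472 by limma). Kif22, a kinesin that binds chromosomes, was at 2432 and 2387 against 1776 and 1941, a difference of 0.38 (SE 0.08, adjusted p = 0.472 by limma). In these genes both high MMP libraries were above both low MMP libraries. The same held for Tpx2, the classical cargo of importin alpha that activates Aurora A, at 5509 and 5924 against 4771 and 4337, a difference of 0.33 (SE 0.10, adjusted p = 0.472 by limma). Dlgap5, which stabilises kinetochore fibres, was at 2022 and 1837 against 1642 and 1675 (difference 0.22, adjusted p = 0.538 by limma). The remaining 6 differed by -0.05 (Rae1), -0.09 (Numa1), -0.03 (Lmnb1), -0.20 (Chd4), -0.02 (Mcrs1) and -0.13 (Kansl3). In all, 4 of the 11 had an unadjusted p under 0.05, each higher in high MMP cells, and 0 an adjusted p under 0.05, against 9.96% and 0% of all genes. Groups did not overlap in 5 genes that were higher and 2 that were lower, and the median of the list was -0.02. Of all genes 13.5% were higher and 24.5% lower without overlap. The shares were 15.6% and 18.9% among genes averaging at least 1000 normalized reads. The spindle factors share at least Nusap1 with the G2/M list, of which 83.3% were higher without overlap. Whether other factors named here are in that list was not counted.

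**Figure D5:**
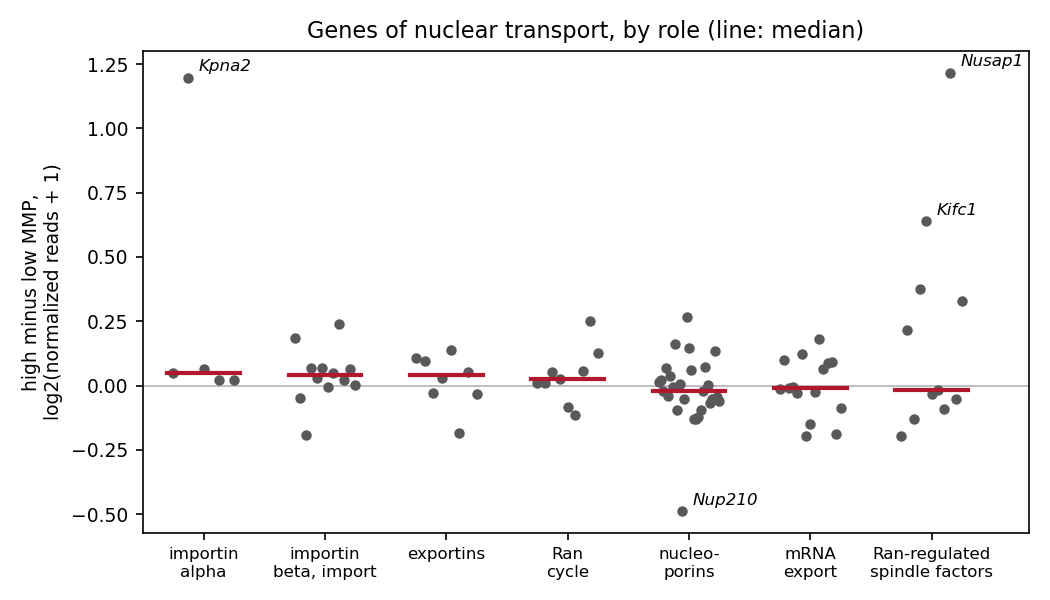
Difference between high and low MMP cells in log2(normalized reads + 1) for each transport gene and each Ran-regulated spindle factor (points), by role, with the list median as a red line. Medians lay between -0.02 and 0.05. Kpna2 (1.20), Nusap1 (1.22) and Kifc1 (0.64) stood apart above, and Nup210 (-0.49), whose groups overlapped, below.

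The summed levels of cell cycle genes also separated the groups. The 54 genes of the G2/M list, which includes Rangap1 but not Kpna2, summed to 264836 and 274755 normalized reads in high and 203016 and 209034 in low MMP cells. Both high MMP libraries were above both low MMP libraries in 45 of the 54 (83.3%, against 13.5% of all genes), and the median difference was 0.32. The 43 genes of the S phase list summed to 117555 and 99923 in high and 139281 and 141669 in low MMP cells, with both high MMP libraries below in 32 genes (74.4%, against 24.5% of all genes) and a median of -0.35. The part of these shifts in the difference of Kpna2 was not tested.

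Similar sequence elsewhere in the genome bears on the Kpna2 count. Of the 1980 overlapping 75-base stretches of its principal transcript, 90.4% also occurred exactly in transcripts of 8 other annotated genes, most of them processed pseudogenes, and 1774 of them in Gm10184 on chromosome 17, which is annotated as protein coding. Reads that match several genes may be split or dropped by the counting, and the rule used is not given in the sources used here. The level of Kpna2, its share of the importin alpha genes and its ratios to Cse1l and Kpnb1 are uncertain to that extent. Gm10184 itself held 62 and 62 recovered reads in high and 19 and 26 in low MMP cells, 0.65% of the reads of Kpna2. The shared share was 12.9% for Ran, mainly with the pseudogene Gm13461, 9.6% for Tnpo1 with Gm6493, and 0 for the other 7 genes. Coding sequences of the paralogs were 55.5% (Kpna6) to 59.8% (Kpna3) identical to that of Kpna2 over the alignment, and none of the 4 shared a 75-base stretch with it. Kpna1 overlaps the antisense gene Gm15564, listed at 474 and 471 in high and 432 and 482 in low MMP cells, and whether the counting used strand is not given in the sources used here.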

How the data were processed

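RNA was measured by sequencing in 2 high MMP and 2 low MMP samples of sorted 4T1 cells, grouped by their titles. STAR, HTSeq and the build GRCm38 are named in the submitters' processing notes. Neither the versions of these tools, nor the annotation used, nor the rule for reads with several matches is given in the sources used here. The deposited values are a signal per gene that the authors scaled to 20000000 per library, limited to genes detected in at least 2 samples. Every value in a library was a whole multiple of 1 step (tolerance 0.1 reads, 100% of values), which returned whole reads for the count tools. The table held 0 columns of other samples.

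Identifiers were matched to GENCODE M21 (19993 of 20197). The test was limma on log2(value + 1), version 3.58.1 (eBayes with a trend) in R 4.3.3, two-sided, with Benjamini-Hochberg adjustment over all 20197 genes and a threshold of 0.05. A fold change on this scale understates that of low genes. The study states no test of single genes for this comparison. Alternatives were pseudocounts of 0.5 and 5, means of at least 1 or 10, median-of-ratios and quantile scaling, no trend, the replicate number as a block, leaving out each sample, and edgeR 4.0.16 and DESeq2 1.42.0 on the recovered reads. An exact permutation test of 2 against 2 samples cannot go below p = 0.333 and was not used. The pipeline was tested on simulated data with seeded changes. There the limma fit on the whole table made no call, whereas limma on genes with a mean of at least 10, edgeR and DESeq2 recovered most seeded genes.

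The 10 genes and the gene lists were chosen with earlier results of these data known. Genes named beside them were, by rule, the 4 importin, exportin or Ran cycle genes and the 3 nucleoporin or mRNA export genes of smallest p, 11 Ran-regulated spindle factors, and the 5 genes nearest to Kpna2 in profile. Levels per kilobase used the union of annotated exons. Promoter windows are from RefSeq.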

Additional observations from a re-analysis of the deposited data

How the results depend on the processing

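The difference of Kpna2 stayed between 1.18 and 1.24 under every other scaling, pseudocount, filter and tool and between 1.09 and 1.30 with 1 library left out. Its excess over the median of its paralogs ranged from 1.06 to 1.27 with 1 library left out. None of the 9 other transport genes was called under any alternative, and only Cse1l had an unadjusted p under 0.05 by limma, without high MMP 2. With 1 library left out, the lone library of a group is assumed to vary like the other group. Over all genes, limma called 0 under each of its settings, including the filters on low values and the replicate block, and edgeR 0 without the block, while edgeR with the replicate block called 106 (63 higher, 43 lower) and DESeq2 118 (82 higher, 36 lower). Same-numbered samples deviated in opposite directions (r = -0.421 over 12902 genes with a mean of at least 10), so the numbers were not taken as pairs. With crossed numbers as the block, chosen after seeing the data, edgeR called 733 genes (351 higher, 382 lower) and limma 0. The median difference of the wider transport list, 0.0141, was 0.0555 with median-of-ratios scaling, 0.0547 with edgeR, 0.0517 with edgeR and the replicate block and 0.0592 with DESeq2, and 0.0105 to 0.0384 with 1 library left out. Xpo1 changed sign to 0.0123 with median-of-ratios scaling and with edgeR, 0.0083 with edgeR and the block and 0.0159 with DESeq2, and Tnpo1 and Ran did so under quantile normalization (-0.0146 and -0.0114). With 1 library left out, the difference ranged from -0.0488 to 0.177 for Kpna3, -0.018 to 0.0635 for Kpna4, -0.0418 to 0.0818 for Kpna6, -0.0027 to 0.1024 for Kpnb1, -0.0449 to 0.0858 for Tnpo1, -0.0363 to 0.249 for Cse1l, -0.142 to 0.0839 for Xpo1 and -0.1282 to 0.1492 for Ran. The cause of these changes was not tested. Each of these genes had at least 1443 reads per library, and the number of samples, 2 per group, limits the precision.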
